A study of Mus musculus with 6 samples.

Results

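The genes of cholesterol and fatty acid synthesis were described as a set of 36 genes. They were chosen by symbol, as members of the pathways, and were found by matching the Ensembl identifiers of the count table to GENCODE M21 symbols. All 36 matched, among 48526 identifiers in the table, and all 36 were among the 20549 genes tested. The set holds 18 enzymes of sterol synthesis, 5 genes that control the SREBP pathway, 4 genes of sterol transport and efflux, and 9 genes of fatty acid synthesis. Of the 36, 4 lie on chromosome 11, namely Acly, Acaca, Fasn and Srebf1.

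The libraries hold RNA of neural progenitor cells grown from mouse embryonic stem cells (mESCs), taken on day 8 of differentiation. The control group carries Dmrta2-flox/flox, that is, alleles prepared for deletion. Dmrta2 encodes a transcription factor of dorsal telencephalic progenitors. The compared group is labelled -/-, a Dmrta2 knockout per the series title. Each group has 3 libraries, which the series text calls biological replicates of an mESC line. With 1 line per genotype, genotype and line cannot be told apart, and p-values measure the spread between samples of a line, which may be technical. Both groups received the BMP receptor inhibitor LDN193189 (100 nM) and the activin and TGF-beta receptor inhibitor SB431542 (10 µM) to day 4, the Wnt pathway inhibitor XAV939 (1 µM) to day 6, and the Hedgehog pathway inhibitor cyclopamine (1 µM) from day 2, in a protocol that continues it to day 10, past the day of sampling. The cells were replated on poly-D-lysine and laminin on day 5. The comparison is between the libraries labelled -/- and the flox/flox control.

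Cholesterol is built from acetyl-CoA through mevalonate, isoprenoid diphosphates, squalene and lanosterol. Fatty acids are built from the same acetyl-CoA by carboxylation, chain synthesis, elongation and desaturation. SREBP transcription factors, made from Srebf1 and Srebf2, are escorted from the endoplasmic reticulum by Scap when sterols are scarce and are held there by Insig proteins when sterols are plentiful, and SREBP2 is known for activating the sterol enzymes while SREBP1c is known for the fatty acid enzymes. LXR receptors respond to oxysterols by activating the efflux genes Abca1, Abcg1 and Apoe. The developing brain makes its own cholesterol, because plasma lipoproteins do not cross into it.

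Total counts ran from 24565560 to 39646793 per library. Levels are CPM, the count of a gene relative to its library's total, scaled by TMM. The 3 values of a group are always those of libraries A, B and C in this order. The lowest count of any member in any library was 296 reads. Dmrta2 itself measured between 75.1 and 85.2 CPM in flox/flox and between 409 and 439 CPM in the libraries labelled -/- (log2 difference 2.40 ± 0.07, SE, adjusted p = 2e-05, edgeR). The deleted part is not named in the labels, so a count over the whole gene checks nothing about the deletion, and directions below are those of the libraries labelled -/-. Progenitor markers were present in both groups, with a summed level of 12 markers between 4054 and 4740 CPM in flox/flox and between 3745 and 4149 CPM in -/-. Of these 12 markers, 6 rose and 5 fell, where 17.9% of all genes tested rose and 17.4% fell. Genes of chromosome 11 were higher as a whole, with a median log2 difference of 0.53 among 958 genes of at least 10 CPM, against -0.01 among 10872 such genes elsewhere. "Rose" and "fell" denote genes with a Benjamini-Hochberg adjusted p below 0.05 over all genes tested in edgeR's quasi-likelihood test, higher or lower in the libraries labelled -/-.

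The sterol enzymes were lower almost along the whole pathway, while fatty acid genes were not. Of the 18 sterol enzymes, 14 fell, 1 rose (Ebp) and 3 did not pass (Acat2, Pmvk and Tm7sf2), with a median log2 difference of -0.38. Among all genes tested, 35.3% passed, 17.4% lower and 17.9% higher, and among genes of at least 10 CPM outside chromosome 11, where all of these enzymes lie, 20.0% fell. The median of all genes tested was -0.00253. The falls ran from 15.3% to 41.8% with adjusted p between 0.000583 and 0.0249 (edgeR, n = 3 libraries per group). In all 14, every library labelled -/- lay below every flox/flox library. The same held for 25.4% of all genes tested, and 25.5% lay wholly above. With the column letter as a replicate block, 41.5% of genes passed and the same numbers of enzymes fell and rose. With the offset for chromosome 11 described below, 18.3% of genes fell and 14.3% rose, and the enzyme counts were again 14 and 1. Without flox/flox B, 9 of the 14 calls were made (10 without -/- B), and all 14 kept their direction when any 1 library was left out. Of 9 fatty acid genes, 4 rose and 1 fell, with a median of 0.13, and 3 of the 4 rises were on chromosome 11.

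**Figure D1:**
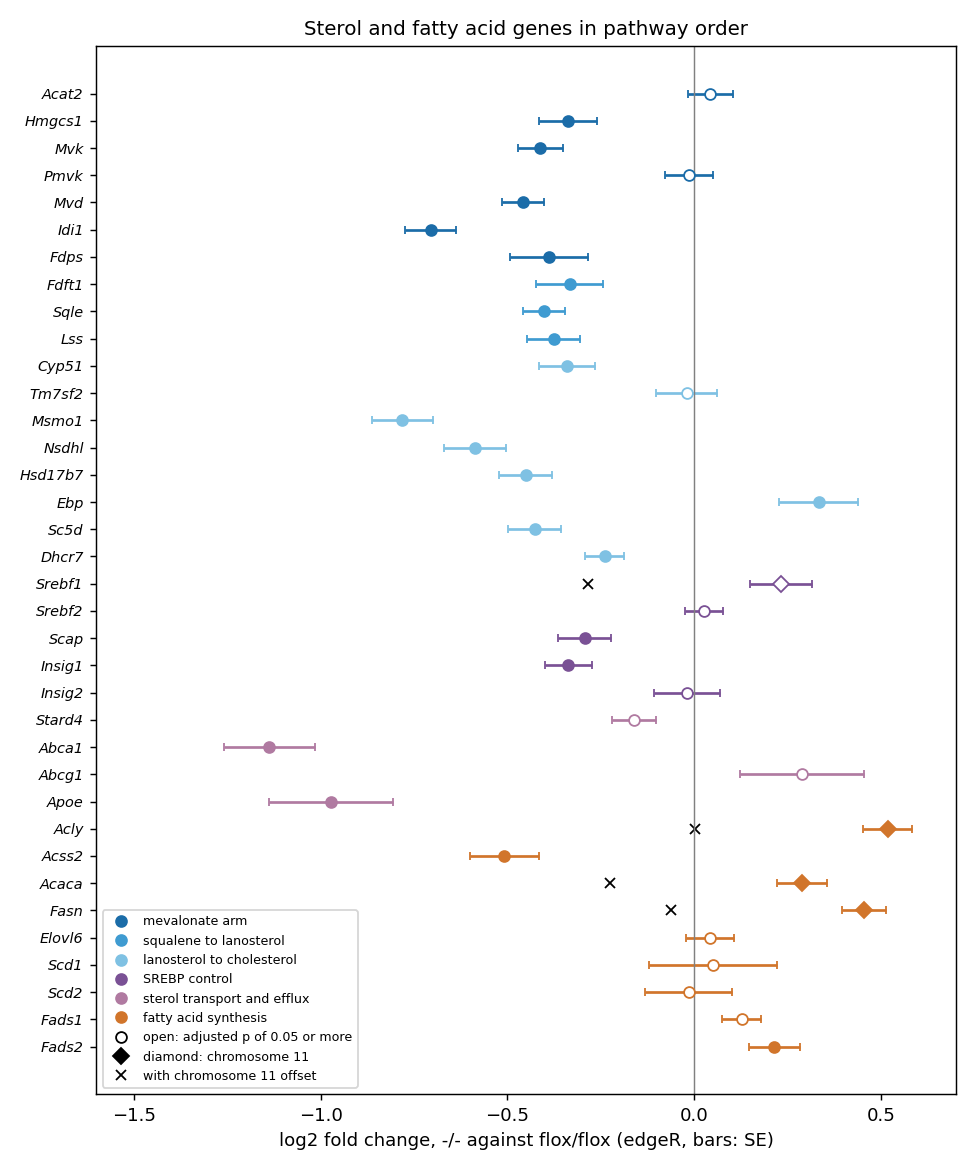
Log2 fold change of the 36 genes in the libraries labelled -/- against flox/flox (x axis, bars are SE of the edgeR fit, n = 3 libraries per group), in pathway order from top to bottom. Most sterol enzymes lie left of 0 around the median of -0.38, the diamonds mark the 4 genes of chromosome 11, and crosses give their value after the chromosome 11 offset.

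Promoters are shown for 4 members, since groups of these genes moved together. Hmgcs1 was the only member with a sterol regulatory element core, among the 28 that had a window. Msmo1 and Idi1 were the enzymes with the largest falls, and Fasn is the fatty acid synthase. The last 3 were chosen after their values were seen. Each is the RefSeq window of 300 bases, from 250 before to 50 after a gene start (GRCm38.p6), printed 5′ to 3′ on the strand of the gene. Capitals mark the sterol regulatory element core (TCACNCCAC) and the NF-Y box (CCAAT, or ATTGG on the other strand). The windows are chr13:119690101-119690400 (plus strand), chr8:64733529-64733828 (minus), chr13:8885356-8885655 (plus) and chr11:120824498-120824797 (minus).
Hmgcs1: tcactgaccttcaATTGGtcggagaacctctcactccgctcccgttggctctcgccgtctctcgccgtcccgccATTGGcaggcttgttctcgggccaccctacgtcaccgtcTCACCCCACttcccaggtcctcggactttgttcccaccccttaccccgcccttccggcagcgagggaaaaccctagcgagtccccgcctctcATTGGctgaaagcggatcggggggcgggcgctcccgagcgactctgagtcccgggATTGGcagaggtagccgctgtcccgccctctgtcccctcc
Msmo1: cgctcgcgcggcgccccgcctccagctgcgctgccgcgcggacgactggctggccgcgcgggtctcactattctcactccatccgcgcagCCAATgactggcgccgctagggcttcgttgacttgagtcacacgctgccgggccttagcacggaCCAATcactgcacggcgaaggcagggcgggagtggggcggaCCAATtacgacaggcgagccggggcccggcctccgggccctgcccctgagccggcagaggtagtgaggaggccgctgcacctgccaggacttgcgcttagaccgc
Idi1: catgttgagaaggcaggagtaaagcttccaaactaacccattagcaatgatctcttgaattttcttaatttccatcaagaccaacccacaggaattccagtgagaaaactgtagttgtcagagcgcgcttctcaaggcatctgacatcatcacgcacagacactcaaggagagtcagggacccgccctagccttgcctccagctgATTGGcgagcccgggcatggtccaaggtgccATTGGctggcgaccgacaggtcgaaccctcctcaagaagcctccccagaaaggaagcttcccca
Fasn: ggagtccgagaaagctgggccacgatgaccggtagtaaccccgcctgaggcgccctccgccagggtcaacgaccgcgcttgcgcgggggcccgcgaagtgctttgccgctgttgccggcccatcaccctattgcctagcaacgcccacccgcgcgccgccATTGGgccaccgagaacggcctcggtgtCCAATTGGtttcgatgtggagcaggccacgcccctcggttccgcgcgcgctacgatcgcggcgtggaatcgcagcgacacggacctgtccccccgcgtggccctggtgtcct
The Hmgcs1 window holds 1 sterol element core and 4 NF-Y boxes, Msmo1 holds 3 NF-Y boxes and Idi1 holds 2. Fasn holds 3, of which 2 overlap.

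NF-Y is a ubiquitous factor known to act beside SREBP, and its box was frequent among the sterol enzymes. Of the 36 members, 28 had a RefSeq window (38 windows in all), and the others were Fdps, Fdft1, Sqle, Stard4, Abcg1, Scd1, Scd2 and Fads1. Searched on both strands, CCAAT was in 14 of 15 sterol enzymes with a window (all but Acat2) and in 3 of 6 fatty acid genes (Acly, Acss2 and Fasn). It was in 41.1% of 27025 genes in the table. At least 2 boxes were in 9 of the 15 sterol enzymes, 1 of the 6 fatty acid genes and 13.3% of genes. The GC box bound by Sp1 (GGGCGG) was also in 14 of the 15 and in 3 of the 6, against 38.2% of genes, and the E-box (CACGTG) was in 3 of the 15 and 0 of the 6, against 8.09%. TCACNCCAC was in 1.44% of genes, and in Hmgcs1 alone among the 28 members with a window. Other forms of the sterol element were not searched. These are matches of letters in a fixed window. Acat2, Pmvk and Tm7sf2, the enzymes that did not pass, held 0, 1 and 1 NF-Y boxes in their richest window, while Ebp, which rose, held 2. Cyp51, Lss and Sc5d, which fell, also held 1 each, and the other enzymes that fell and had a window held 2 to 5.

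In the mevalonate arm, 5 of 7 genes fell and 0 rose, where 17.4% of all genes tested fell and 17.9% rose. Hmgcs1, which joins acetyl-CoA to acetoacetyl-CoA to make HMG-CoA, was by far the most abundant sterol enzyme per exon length in flox/flox, at 231 CPM per kilobase against 69.6 for Acat2, the next. It measured 1007, 1106 and 1064 CPM in flox/flox and 838, 761 and 914 CPM in -/-. The groups did not overlap, and the difference was -0.34 ± 0.08 (log2, SE, adjusted p = 0.0133, edgeR). The call was lost without flox/flox B or without -/- B (adjusted p up to 0.0612, edgeR). Mvk, which phosphorylates mevalonate, measured 52.9, 51.5 and 55.7 CPM in flox/flox and 41.1, 40.2 and 39.0 CPM in -/-, a fall of 0.41 on the log2 scale. Mvd, which decarboxylates the diphosphate to isopentenyl diphosphate, went from 47.9 ± 1.41 to 34.9 ± 0.550 CPM (SD, n = 3), so that the groups lay well apart beside a spread of a few percent. Pmvk, the kinase between them, measured 37.0, 39.7 and 39.2 CPM in flox/flox and 38.7, 36.5 and 39.6 CPM in -/-, with overlapping groups (log2 difference -0.01 ± 0.06, adjusted p = 0.887, edgeR).

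Idi1, the isomerase that makes dimethylallyl diphosphate, had the largest fall of the mevalonate arm. It measured 76.0, 81.3 and 75.3 CPM in flox/flox and 49.6, 44.1 and 48.9 CPM in -/-, and fell by 38.7% (log2 difference -0.71 ± 0.07, SE, adjusted p = 0.000583, edgeR). The lowest control library thus stood above the highest library labelled -/- by a wide margin, and leaving out any library gave log2 differences between -0.73 and -0.64. Fdps, which makes farnesyl diphosphate, measured 30.9, 36.7 and 37.3 CPM in flox/flox and 27.6, 23.8 and 28.8 CPM in -/- (-0.39 ± 0.10, adjusted p = 0.0249, edgeR). Its exons overlap those of Gm43738 over 26.7% of their length, and its call was lost without any 1 of 4 libraries (flox/flox B or C, -/- A or B; adjusted p up to 0.0976). Acat2, the cytosolic thiolase at the head of the pathway, stayed between 170 and 192 CPM in all 6 libraries (0.04 ± 0.06, adjusted p = 0.609, edgeR). Reads of Acat2 could be shared with its close paralog Acat3, since the rule for multiply mapped reads is not given in the sources used here.

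All 3 genes between farnesyl diphosphate and lanosterol fell, by similar amounts, where 17.4% of all genes tested fell. Sqle, the squalene epoxidase that is a control point of the pathway, measured 233, 235 and 219 CPM in flox/flox and 174, 166 and 180 CPM in -/- (-0.40 ± 0.06, log2, SE, adjusted p = 0.00197, edgeR). Lss, which closes squalene epoxide into lanosterol, measured 128, 143 and 145 CPM in flox/flox and 103, 103 and 114 CPM in -/- (-0.38 ± 0.07). Fdft1, the squalene synthase, went from 113 ± 3.41 to 90.0 ± 11.2 CPM (SD, n = 3). The groups did not overlap for any of the 3, where 25.4% of all genes tested lay wholly lower in -/-. For Fdft1, -/- C was closest to the control, at 103 CPM against 85.3 and 81.9 CPM in -/- A and B. The call of Fdft1 was lost without flox/flox B or C or without -/- A or B (adjusted p up to 0.0979, edgeR), and 18.3% of its exonic length overlaps Ctsb.

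Among the 8 genes from lanosterol to cholesterol, 6 fell and 1 rose, where 17.4% of all genes tested fell and 17.9% rose. Msmo1, the oxidase that begins removal of the methyl groups at carbon 4 of the sterol ring, had the largest fall of all sterol enzymes. It measured 252, 276 and 229 CPM in flox/flox and 151, 137 and 152 CPM in -/-, and fell by 41.8% (-0.78 ± 0.08, log2, SE, adjusted p = 0.000678, edgeR). Nsdhl and Hsd17b7 act in the same demethylation. Nsdhl, a dehydrogenase encoded on the X chromosome, measured 110, 106 and 96.2 CPM in flox/flox and 70.1, 63.4 and 74.8 CPM in -/-, and fell by 33.4%. Hsd17b7, the ketoreductase, went from 60.2 ± 4.39 to 44.1 ± 1.64 CPM (SD, n = 3), a log2 difference of -0.45 ± 0.07. All 3 genes of the demethylation therefore fell, and all 3 kept their calls in each of the 14 other fits. Cyp51, the lanosterol demethylase, measured between 208 and 230 CPM in flox/flox and between 159 and 187 CPM in -/- (-0.34 ± 0.07, adjusted p = 0.0112, edgeR, and 0.0527 without flox/flox B).

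The last steps were less uniform. Sc5d, the desaturase that acts late in the pathway, went from 59.9 ± 4.42 to 44.5 ± 1.26 CPM (SD, n = 3). Dhcr7, the reductase that acts on 7-dehydrocholesterol, had the smallest of the falls, 15.3%, from 113, 113 and 108 CPM in flox/flox to 97.1, 92.3 and 94.1 CPM in -/- (adjusted p = 0.0102, edgeR), and its call was lost without flox/flox B or -/- B (adjusted p up to 0.0631). Ebp, the isomerase that shifts the ring double bond, moved the other way, from 13.7, 11.2 and 12.8 CPM to 17.1, 15.6 and 14.99 CPM (0.33 ± 0.11, adjusted p = 0.0436, edgeR). The groups of Ebp did not overlap, but its rise was not called when flox/flox B, flox/flox C, -/- A or -/- B was left out (adjusted p up to 0.145). Ebp was the lowest of the 18 enzymes per exon length, at 5.45 CPM per kilobase in flox/flox. Tm7sf2, which encodes a sterol reductase of the inner steps, measured 38.9 ± 1.55 and 38.4 ± 3.57 CPM and did not pass (-0.02 ± 0.08, adjusted p = 0.878, edgeR).

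**Figure D2:**
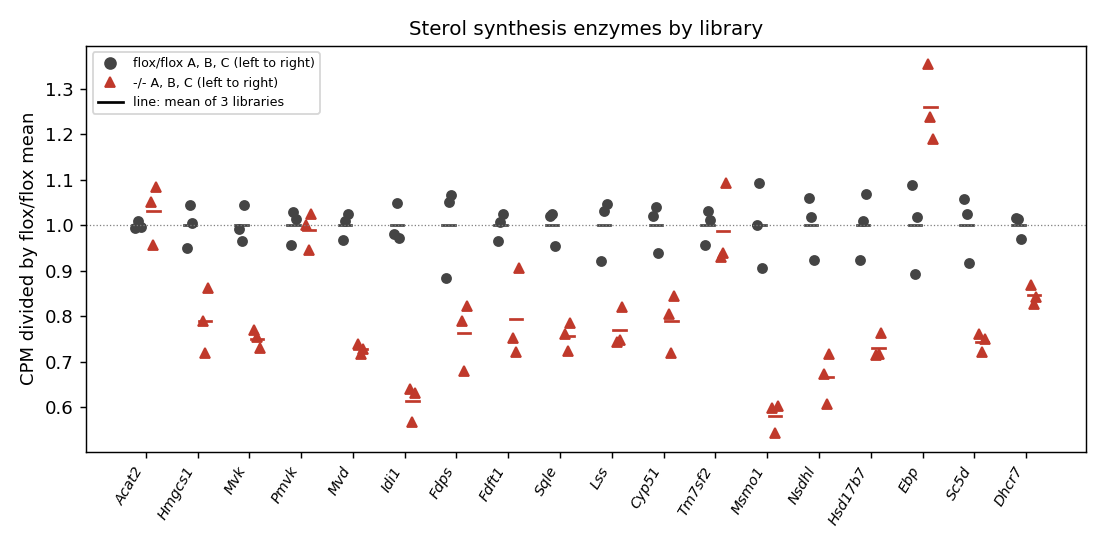
Level of each of the 18 sterol enzymes in each library, as CPM divided by the flox/flox mean of that gene (y axis, not starting at 0), with flox/flox as circles, -/- as triangles and the mean of 3 libraries as a line. For 14 enzymes every triangle lies below every circle, while Acat2, Pmvk and Tm7sf2 overlap and Ebp lies above.

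Averaged over the 18 enzymes and set against the control mean, log2 levels were -0.02, 0.03 and -0.01 in the control libraries and -0.31, -0.41 and -0.27 in those labelled -/-. The control libraries were therefore close to each other on this measure, and the libraries labelled -/- all stood below them. Markers of postmitotic neurons moved with the group: 13 of 14 rose and 0 fell, where 17.9% of all genes tested rose. Their summed level ran from 1924 to 3005 CPM in flox/flox and from 3620 to 5955 CPM in -/-. Flox/flox A and flox/flox C, the lowest and highest control libraries for neuron markers, were almost equal in the enzymes, and -/- C had both the highest neuron marker level and the enzyme level closest to the control. In bulk RNA, fewer cells of a type and less RNA per cell cannot be told apart. The neuron marker sums of the groups did not overlap, so neuron content and group cannot be separated here. The part of neurons in the enzyme differences was not tested.

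**Figure D3:**
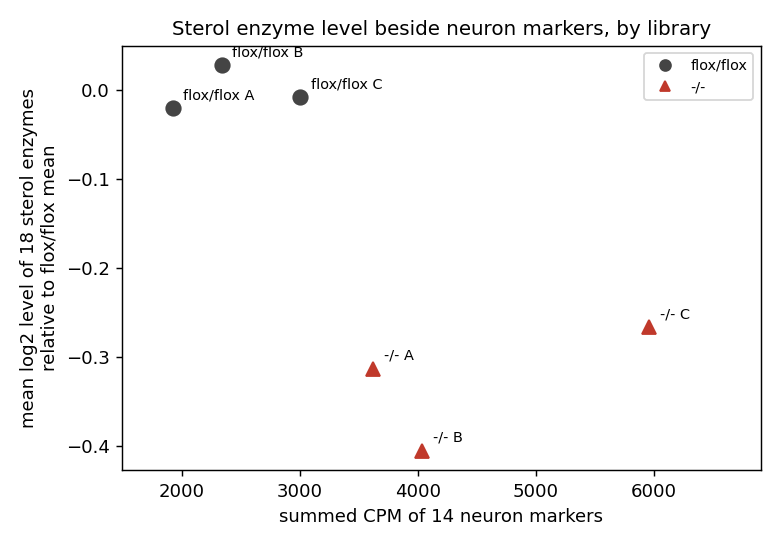
Mean log2 level of the 18 sterol enzymes relative to the flox/flox mean (y axis) against the summed CPM of 14 neuron markers (x axis) in each of the 6 libraries. The flox/flox libraries spread from 1924 to 3005 CPM at an almost constant enzyme level, and the libraries labelled -/- lie lower, with -/- C at 5955 CPM the highest of the 3 for the enzymes.

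Of the 5 genes that control SREBP, Scap and Insig1 fell and the others did not pass. Among all genes tested, 35.3% passed in either direction and 17.4% fell, and a count over 5 genes is too small to set apart from those shares. Srebf2, which encodes the SREBP2 precursor, measured 479, 458 and 455 CPM in flox/flox and 471, 461 and 485 CPM in -/-, with overlapping groups (log2 difference 0.03 ± 0.05, SE, adjusted p = 0.731, edgeR). Scap, the escort, measured 110, 118 and 106 CPM in flox/flox and 95.1, 94.0 and 83.5 CPM in -/- and fell (-0.29 ± 0.07, adjusted p = 0.0168, edgeR), a call lost without flox/flox B or -/- B (adjusted p up to 0.0745). Insig1, an anchor that is itself a known SREBP target, measured 115, 111 and 107 CPM in flox/flox and 90.7, 82.0 and 90.9 CPM in -/- and fell (-0.34 ± 0.06, adjusted p = 0.00608, edgeR). Its fall was about as large as the median of the sterol enzymes, and it was called in all 14 other fits. Insig2, the second anchor, measured 24.1 ± 2.16 and 23.8 ± 1.19 CPM (SD, n = 3) and did not pass.

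Srebf1 lies on chromosome 11. It measured 237, 233 and 199 CPM in flox/flox and 272, 272 and 243 CPM in -/-, groups that did not overlap. Its log2 difference, 0.23 ± 0.08, missed the threshold (adjusted p = 0.0643, edgeR). It passed as higher in the fit blocked by column letter (adjusted p = 0.00744), and also without -/- C. The difference was smaller than the median of its chromosome, and with the chromosome 11 offset of 0.516, the median of all tested genes of that chromosome minus that of all others, it was -0.28 (adjusted p = 0.0359, edgeR).

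The efflux genes held the largest differences of the whole set. Abca1, which exports cholesterol to lipid-poor apolipoproteins, measured 73.0, 73.6 and 56.1 CPM in flox/flox and 28.1, 30.4 and 33.8 CPM in -/-, and fell by 54.5% (log2 difference -1.14 ± 0.12, SE, adjusted p = 0.000753, edgeR). Apoe, the main apolipoprotein of the brain, measured 43.9, 31.8 and 28.5 CPM in flox/flox and 18.6, 19.0 and 15.6 CPM in -/-, and fell by 49.0% (-0.97 ± 0.17, adjusted p = 0.00415, edgeR). Neither gene had overlapping groups, where 25.4% of all genes tested lay wholly lower in -/-. Both calls held in all 14 other fits. Abcg1, the third LXR target, did not move with them: it measured 13.8, 16.7 and 20.8 CPM in flox/flox and 18.1, 20.6 and 24.0 CPM in -/- (0.29 ± 0.17, adjusted p = 0.217, edgeR). In each group Abcg1 was lowest in A and highest in C, and the fit blocked by column letter called it higher (adjusted p = 0.0216). Stard4, a carrier of cholesterol between membranes, measured 104, 101 and 104 CPM in flox/flox and 97.7, 90.7 and 87.4 CPM in -/-, which did not overlap. The difference, -0.16 ± 0.06, was not called (adjusted p = 0.0711, edgeR) but did with the block (0.0489) and without -/- A.

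Markers of other cell types moved with the group beside Apoe and Abca1. Among all genes tested, 17.9% rose and 17.4% fell, and the counts that follow stand beside those shares. Of 11 listed markers of the cortical hem and choroid plexus, 10 were tested, 8 fell and 0 rose, with a summed level from 708 to 1077 CPM in flox/flox and from 121 to 176 CPM in -/-. Markers of mesoderm, endoderm and fibroblasts had 3 rises and 3 falls among 10 tested, and summed to between 304 and 704 CPM in flox/flox and between 164 and 244 CPM in -/-. Flox/flox A was the highest library for both sums and for Apoe. Abca1 did not share this order. Its level was 73.62 CPM for flox/flox B, about equal to the 73.05 CPM of flox/flox A. Yet flox/flox B had the lowest control sum of hem and choroid plexus markers, at 708 CPM. Of 8 microglia and macrophage markers, Tyrobp was at 0 in all libraries and 6 of the 8 had too few reads to be tested. Of 8 tested radial glia and astrocyte markers, 4 rose and 0 fell. Of 6 tested surface epithelium markers, 4 fell and 0 rose, with sums from 274 to 383 CPM in flox/flox and from 71.8 to 138 CPM in -/-. Of 7 tested markers of pluripotent cells, 3 fell and 0 rose, with sums from 104 to 113 CPM and from 63.1 to 88.0 CPM. Among 8 tested oligodendrocyte lineage markers, 3 rose and 1 fell. The part of these cell types in the differences of Apoe and Abca1 was not tested.

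Fatty acid synthesis showed a different pattern, in which all 3 genes on chromosome 11 rose, against 1 of the 6 elsewhere. Fasn, the fatty acid synthase (ENSMUSG00000025153, chromosome 11, 120805846 to 120824547), measured 773, 829 and 757 CPM in flox/flox and 1093, 1031 and 1109 CPM in -/-, and rose (log2 difference 0.45 ± 0.06, SE, adjusted p = 0.00146, edgeR). Acly, which splits citrate into cytosolic acetyl-CoA (ENSMUSG00000020917, chromosome 11, 100476353 to 100528000), measured 468, 503 and 528 CPM in flox/flox and 708, 683 and 754 CPM in -/-, and rose by 43.2% (0.52 ± 0.07, adjusted p = 0.00135, edgeR). Acaca, the carboxylase that commits acetyl-CoA to fatty acids (ENSMUSG00000020532, chromosome 11, 84129672 to 84401651), measured 61.3, 58.1 and 54.6 CPM in flox/flox and 70.6, 67.9 and 74.2 CPM in -/-, and rose by 22.2% (adjusted p = 0.0135, edgeR, and 0.0538 without flox/flox B). No library of one group reached those of the other for these 3 genes. Of all genes tested, 25.5% lay wholly above in the libraries labelled -/-. That share was not computed for chromosome 11 alone.

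On chromosome 11, 59.6% of genes tested rose, and 77.6% of those with at least 10 CPM, so the 3 rises of 3 are near that background. With the offset taken out, Acly was at 0.00 (adjusted p = 0.984, edgeR), Fasn at -0.06 (0.468) and Acaca at -0.23 (0.0363), so that Acaca was then called lower. Relative to its chromosome, then, Acly stood at the median and Acaca below it.

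**Figure D4:**
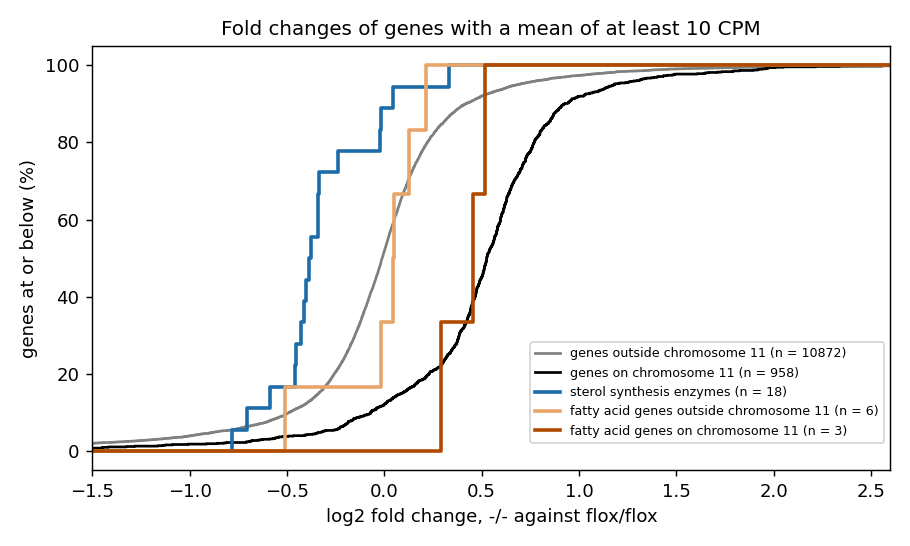
Cumulative share of genes (y axis, percent) at or below a log2 fold change (x axis) for genes of at least 10 CPM outside and on chromosome 11 and for the sterol and fatty acid genes. The sterol enzymes have a median of -0.38, left of the median of -0.01 for the 10872 genes outside chromosome 11. The ranges overlap, with Ebp at 0.33 and genes such as Abca1 (-1.14) further left than any enzyme. The 3 fatty acid genes of chromosome 11 lie within the range of its 958 genes.

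Outside chromosome 11, 1 of 6 fatty acid genes rose and 1 fell, with a median of 0.05. Of all genes tested, 17.9% rose and 17.4% fell, so these counts are near the background. Acss2, which makes acetyl-CoA from acetate, measured 30.9, 34.3 and 35.7 CPM in flox/flox and 21.6, 23.6 and 25.8 CPM in -/-, and fell by 29.7% (log2 difference -0.51 ± 0.09, SE, adjusted p = 0.00525, edgeR). It was the fatty acid member whose fall resembled those of the sterol enzymes in size. Fads2, a desaturase of polyunsaturated fatty acids, measured 182, 187 and 168 CPM in flox/flox and 215, 193 and 215 CPM in -/-, a rise of 0.21 ± 0.07 (adjusted p = 0.0442, edgeR). That call was lost in DESeq2 (adjusted p = 0.054) and without any 1 library but -/- B (adjusted p up to 0.11). Fads1, its neighbour on chromosome 19 and partner in the same route, measured 220, 224 and 208 CPM in flox/flox and 241, 231 and 241 CPM in -/- (0.13 ± 0.05, adjusted p = 0.0998, edgeR).

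The stearoyl-CoA desaturases, which make monounsaturated fatty acids, differed more within the groups than between them. Scd2, the form abundant in brain, was the highest member per exon length, at 663 CPM per kilobase in flox/flox against 88.2 for Scd1. Scd2 measured 4112, 3796 and 2966 CPM in flox/flox and 3772, 3539 and 3451 CPM in -/- (log2 difference -0.01 ± 0.12, SE, adjusted p = 0.937, edgeR). Scd1 measured 490, 470 and 334 CPM in flox/flox and 529, 440 and 372 CPM in -/- (0.05 ± 0.17, adjusted p = 0.849, edgeR). Both were highest in A and lowest in C in each group. Elovl6, which elongates palmitate, stayed between 127 and 142 CPM in all libraries (0.04 ± 0.06, adjusted p = 0.639, edgeR).

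Further genes of the pathways were counted from lists by function. Of 11 genes of isoprenoid side branches, 1 rose and 1 fell, with a median of -0.09, where 17.9% of all genes tested rose and 17.4% fell. Ggps1, which makes the geranylgeranyl diphosphate used for protein prenylation, rose from 20.6 ± 1.52 to 28.7 ± 2.77 CPM (SD, n = 3, adjusted p = 0.00821, edgeR), opposite in direction to Fdps. Dhdds, which elongates farnesyl diphosphate toward dolichol, fell from 56.4 ± 2.31 to 40.4 ± 3.04 CPM (adjusted p = 0.00269, edgeR). The other 9, among them the farnesyl and geranylgeranyl transferase subunits, did not pass.

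Of 11 genes for processing of SREBP and degradation of sterol enzymes in the endoplasmic reticulum, 6 fell and 2 rose, and both rises, Rnf145 and Tmem97, were on chromosome 11. Of all genes tested 17.4% fell and 17.9% rose, and 20.0% of those outside chromosome 11 with at least 10 CPM fell. Mbtps1 and Mbtps2, the proteases that release SREBP from the membrane, both fell. Mbtps1 went from 188 ± 10.2 to 160 ± 5.65 CPM and Mbtps2 from 56.1 ± 4.90 to 46.0 ± 1.10 CPM (SD, n = 3). Erlin1, a lipid raft protein of Insig degradation, went from 24.6 ± 0.250 to 20.7 ± 1.30 CPM. These falls were shallow, with a median of -0.18 outside chromosome 11, and 0 of the 6 were called without flox/flox A, without flox/flox B or without -/- B, although all 9 genes outside chromosome 11 had negative log2 differences in each of these fits. DESeq2 called 3 falls, and 2 were called with no low-count filter, without -/- A or without -/- C. Of Mbtps2, 28.4% of exonic length overlaps Yy2. With the chromosome 11 offset Rnf145 was at -0.14 and Tmem97 at -0.03, and neither passed.

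Of 17 tested genes of LXR and sterol trafficking, 4 fell and 1 rose (Stard3, on chromosome 11). Of all genes tested 17.4% fell and 17.9% rose, so the falls were near the background and the rises below it. Lrp8, a receptor for reelin and apolipoprotein E, fell from 158 ± 12.2 to 121 ± 6.17 CPM (SD, n = 3, adjusted p = 0.00591, edgeR). Mylip, an LXR-induced ligase that degrades lipoprotein receptors, went from 9.61 ± 0.341 to 7.38 ± 0.550 CPM (adjusted p = 0.0271, edgeR). Lcat, which esterifies cholesterol on lipoproteins, fell from 1.5 ± 0.445 to 0.633 ± 0.117 CPM (adjusted p = 0.0139, edgeR, and 0.0545 without flox/flox B). The rise of Stard3 was at -0.08 with the chromosome 11 offset and did not pass there. Without flox/flox B, 1 of the 17 fell, and 2 without -/- B, without -/- C or with no low-count filter.

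Among 24 tested further genes of fatty acid synthesis, 3 rose and 6 fell, against 17.9% and 17.4% of all genes tested, so that the counts are not far from the background. Mid1ip1, which promotes polymerisation of acetyl-CoA carboxylase, fell from 62.4 ± 9.15 to 22.6 ± 0.635 CPM (SD, n = 3, adjusted p = 0.000332, edgeR), a larger change than in any of the 36 members, although 25.5% of its exonic length overlaps Gm14493. Me1, the malic enzyme that supplies NADPH for lipid synthesis, fell from 18.6 ± 0.453 to 8.12 ± 0.692 CPM (adjusted p = 0.000381, edgeR). Acsl5, an acyl-CoA synthetase, fell from 11.1 ± 0.641 to 7.005 ± 1.11 CPM. Its relative Acsl6, on chromosome 11 and known from neural tissue, rose from 22.0 ± 5.33 to 71.8 ± 9.42 CPM and still rose with the offset (1.20, adjusted p = 0.00295, edgeR). Mlx, the partner of the carbohydrate-response factors and also on chromosome 11, rose from 18.4 ± 0.701 to 35.8 ± 2.13 CPM and stood at 0.44 with the offset. Acsbg1 rose from 0.896 ± 0.681 to 10.3 ± 3.62 CPM. The number of falls was 3 without flox/flox B or without -/- B.

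Fatty acid oxidation showed no common direction, with 3 rises and 4 falls among 17 genes and a median of 0.02, near the 35.3% of all genes tested that passed in either direction. Hadh and Acadl, mitochondrial dehydrogenases of the oxidation cycle, both fell. Hadh went from 85.9 ± 4.12 to 62.1 ± 6.17 CPM and Acadl from 46.2 ± 2.79 to 35.0 ± 1.76 CPM (SD, n = 3). Acadm, the medium-chain form, fell by 0.27 on the log2 scale. Acadvl, on chromosome 11, rose from 25.5 ± 3.52 to 42.9 ± 2.97 CPM, but 42.9% of its exonic length overlaps Dvl2 and with the offset it did not pass (0.23, adjusted p = 0.141, edgeR). Cpt1c, the neuronal form of carnitine palmitoyltransferase, rose from 65.9 ± 5.94 to 83.0 ± 5.60 CPM. Ppargc1a, a coactivator of mitochondrial genes, rose from 0.991 ± 0.501 to 3.34 ± 0.924 CPM (adjusted p = 0.0101, edgeR). The falls numbered 2 without -/- B or with no low-count filter, and 3 without any other 1 library.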

How the data were processed

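RNA was sequenced from 6 libraries of neural progenitors, 3 flox/flox and 3 labelled -/-. The deposited values are unnormalised read counts by Ensembl identifier, in a single table. The submitters' processing notes list BWA (0.5.9), featureCounts (1.4.6) and the build mm10, or GRCm38. Annotation release, strand setting and the handling of multiply mapped or duplicate reads: not given in the sources used here. Overlapping genes can therefore share reads. Columns name the genotype and a letter, while the labels number replicates, so columns were assigned to groups only. No sample column was omitted. Libraries of 1 group differed beyond sampling noise (chi-square per gene between 5.47 and 29.8).

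Symbols, positions and exon lengths came from GENCODE M21 (48144 of 48526 identifiers; the rest held at most 0.182% of counts). The test was edgeR 4.0.16 (R 4.3.3), quasi-likelihood, two-sided, with filterByExpr (minimum count 10, minimum total 15), TMM scaling and the group alone in the model, adjusted by Benjamini-Hochberg over 20549 genes at 0.05. Fold changes are log2 with SE, levels are TMM-scaled CPM as mean ± SD, and 1 CPM stands for at least 24.6 reads. Alternatives were DESeq2 1.42.0 or upper-quartile scaling, 2 other filters (none, and 1 CPM in 3 libraries), each library left out, a DESeq2 test, limma-voom (limma 3.58.1), a threshold of 0.01, the column letter as a replicate block and an offset for chromosome 11. On simulated counts for this comparison over 20549 genes, log2 changes of 0.5, 1 and 2 were recovered in 31.3% of 67, 83.6% of 67 and 100% of 66 genes, with 23 false calls among 19934 unchanged genes. Far fewer genes were changed in the simulation than passed in the data, so these shares do not give the recovery for the members.

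Same-letter libraries of the groups deviated together (correlation across genes 0.275, 0.101 and 0.264 for A, B and C, against -0.298 to 0.0316 for unlike letters), so the letters were read as pairing the samples. Deviations from a group mean cancel out within the group, so positive same-letter values by themselves lower the unlike-letter ones. The contrast between like and unlike letters is therefore partly built in. The labels give no reason for the pairing, and B was barely over the limit of 0.1 used. The members and lists were chosen with earlier results of these data known. All members are named, and of each further list up to 3 genes per direction with the smallest adjusted p.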

Additional observations from a re-analysis of the deposited data

How the results depend on the processing

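The results were recomputed in 14 other fits and at a stricter threshold. In the fits that used all libraries, the number of genes called lay between 6683 and 8529, members called lower between 19 and 21, and the sterol synthesis median between -0.39 and -0.36. Of 24 members called, 13 kept their call in all 14 fits. Across the 36 genes and all settings, 478 of 540 member values kept direction and side of the threshold, 36 lost a call, 6 gained one and 20 changed sign. Leaving out 1 library gave 4717 to 6846 genes called, 2 to 5 members called higher against 5, 13 to 19 called lower, a sterol synthesis median of -0.42 to -0.32 and a fatty acid median of 0.11 to 0.18. The lowest numbers of genes and of members came without flox/flox B. At a threshold of 0.01, 3887 genes, 2 members called higher and 13 called lower remained past it. With the chromosome 11 offset 2 members were called higher, the fatty acid synthesis median was 0.00222, and Srebf1, Acaca and Fasn changed sign (-0.283, -0.226 and -0.0611). With the column letter as a replicate block, 8529 genes, 7 members called higher and 20 called lower passed. It added Srebf1, Abcg1 and Stard4 and changed no other call among the members. Signs of genes near 0 also changed: with no low-count filter Pmvk was at 0.00519 and Scd2 at 0.00481, and with 1 library left out Pmvk ran from -0.0452 to 0.0297, Tm7sf2 from -0.0884 to 0.0265, Insig2 from -0.0814 to 0.0348, Scd1 from -0.0948 to 0.177 and Scd2 from -0.132 to 0.0856. The test recovered only a part of simulated log2 changes of 0.5, though with far fewer changed genes than passed in the data. Members that did not pass are not shown to be unchanged.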
